A study of Mus musculus with 16 samples.

Results

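The growth hormone, IGF1 and IGF-binding genes of the liver were followed as a set of 10 genes: Ghr, Stat5b, Socs2, Bcl6, Igf1, Igfals, Igfbp1, Igfbp2, Igfbp3 and Igfbp4. They were taken by gene name from both count tables, which hold 24421 rows each, and 10 of 10 passed the filter on low counts in every comparison. The data are 16 RNA-seq libraries of whole mouse liver in 4 groups of 4. DKO livers carried homozygous floxed alleles of both Arid1a and Arid1b with the Alb-Cre transgene, and their controls carried both floxed genes without Cre. BKO livers carried floxed Arid1b with the transgene, and their controls carried floxed Arid1b without Cre. All 4 groups are therefore floxed, and the libraries named WT below are Cre-negative floxed animals. Cre is driven by the albumin promoter, which is active in hepatocytes and in the fetal cells from which hepatocytes and bile duct cells arise. Whole liver also holds cells outside that lineage. Every knockout carried Cre and no control did, and an Arid1a-only knockout was not analysed here, so an effect of Cre, or of Arid1a loss alone, cannot be told apart from the effect of the double loss. The ages are not given in the labels.

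The BAF complex, which contains either ARID1A or ARID1B, moves nucleosomes with energy from ATP. Growth hormone from the pituitary binds its receptor GHR on hepatocytes, the attached kinase JAK2 phosphorylates STAT5B, and STAT5B enters the nucleus and switches on Igf1, Igfals and Socs2. The liver is the main source of IGF1 in blood, where most of it travels in a complex with IGFBP3 and the acid-labile subunit encoded by Igfals. Other binding proteins carry IGF1 in smaller complexes and limit its access to the receptor. In rodents growth hormone is released in a sex-dependent rhythm, and part of the sex-biased gene expression of liver follows it through STAT5B and BCL6.

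In DKO livers the receptor, the main ligand and its carrier fell together: Ghr to 209.7 ± 29.2 normalized CPM, the count scaled to library size,, Igf1 to 530.3 ± 24.7 CPM and Igfals to 57.2 ± 15.3 CPM, against 590.4 ± 20.9, 1213 ± 190.0 and 186 ± 46.6 CPM in their controls (mean ± SD, n = 4 libraries each). Igfbp4 fell as well, and Igfbp1 rose. Stat5b, Socs2, Bcl6, Igfbp2 and Igfbp3 did not pass the test. In total 1 member was higher and 4 were lower in DKO livers at an adjusted p under 0.05, where 35.8% of the 12848 genes tested were called, 19.2% of them higher and 16.6% lower. In BKO livers 0 of the 10 members were called by edgeR, 0 by DESeq2 and 0 by limma voom, and 1, Stat5b, had an unadjusted p under 0.05, where 0.583% of 14061 genes were called, 0.185% higher and 0.398% lower. The median log2 fold change of the members was -0.96 in DKO livers, beside 0.02 over all genes tested, and -0.05 in BKO livers, beside 0.00 over all genes.

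**Figure D1:**
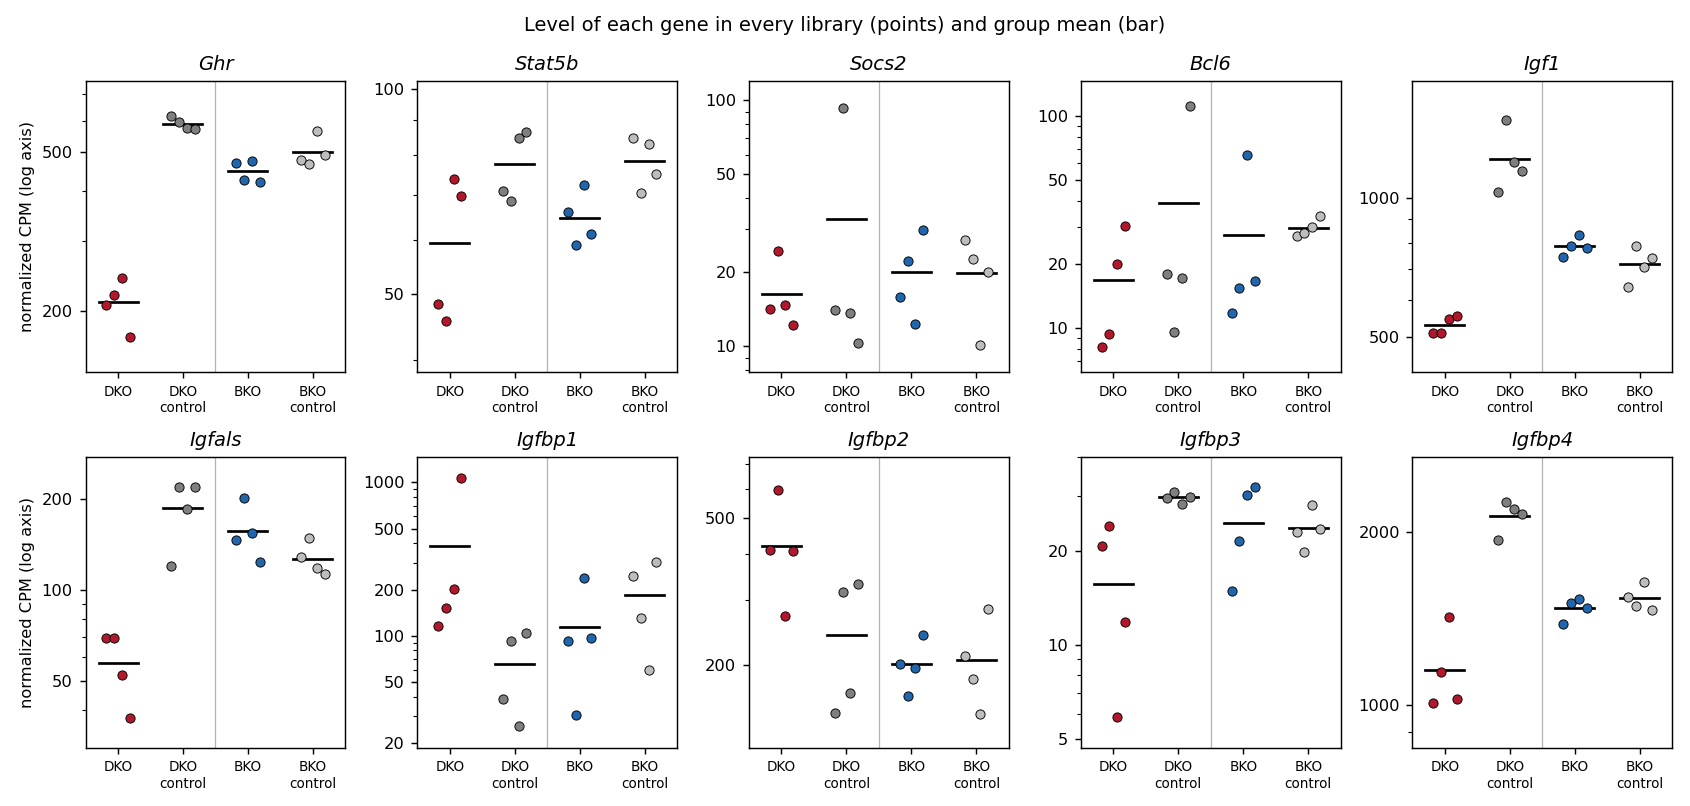
Level of each gene in every library (points, normalized CPM on a log axis) with the group mean as a bar, for DKO livers, their controls, BKO livers and their controls, n = 4 libraries each. Ghr lies between 172 and 242 CPM in DKO livers and between 571 and 617 CPM in their controls, while the BKO and control points of all 10 genes overlap.

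Libraries of the DKO experiment held 8699417 to 11031443 counts and those of the BKO experiment 21151726 to 40551934, so the members' low levels were read at a greater depth in the BKO experiment. Arid1b, 1 of the targeted genes, was lower in DKO livers, at 60.0 ± 13.7 CPM against 89.3 ± 9.17 CPM in controls (edgeR adjusted p = 0.0167, not called with total counts, at 0.0910, or without DKO-7068, at 0.0515), and lower in BKO livers, at 44.3 ± 3.98 CPM against 84.8 ± 2.01 CPM (edgeR adjusted p = 0.00154; SD, n = 4 each). Arid1a did not pass in DKO livers, at 108 ± 6.08 CPM against 124 ± 10.2 CPM in controls (log2 fold change -0.20, edgeR adjusted p = 0.149), and counts over a whole gene do not show whether the floxed exons were removed. That each library is a separate animal rests on its tag alone, and the BKO controls F5 and F5-2 share the tag F5, so these 4 controls may come from 3 animals. P-values therefore measure the spread between these libraries, and with F5 and F5-2 summed 0 members were called in BKO livers. DKO-7068 and DKO-7070 were by far the closest pair of libraries within a group, and with them summed 6 members were called in DKO livers. In whole liver, fewer hepatocytes and less RNA per hepatocyte cannot be told apart. The marker lists were chosen with earlier results of these data known, and over all genes tested in the DKO experiment 16.6% were lower and 19.2% higher. Hepatocyte markers, a list of 10 with Alb among them, summed to 97671 to 116992 CPM in DKO livers and 141586 to 172949 CPM in controls, with 4 of 10 lower and 0 higher. Stellate cell markers summed to 1645 to 2496 CPM in DKO livers and 432 to 597 CPM in controls, with 6 of 10 higher and 1 lower. Recruited macrophage markers summed to 164 to 979 CPM in DKO livers and 40.9 to 47.8 CPM in controls, with 9 of 10 higher, and bile duct markers to 127 to 928 CPM in DKO livers and 42.7 to 64.0 CPM in controls, with 4 of 6 tested higher. Kupffer cell marker sums, 626 to 691 CPM in DKO livers and 393 to 667 CPM in controls, and endothelial sums overlapped, with 5 of 10 Kupffer markers higher, 1 of 10 endothelial markers higher and 3 lower. No marker gene was at 0 in either group. In the BKO experiment no marker passed the test, where 0.583% of all genes did. The part these cells play in the members' levels was not tested except as given below.

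Start-site sequences were read for every member that had entries, so that the letters stand beside the values that follow. Windows were picked for display because they hold a match, and 4 of the 5 that do are shown. The windows run from 250 bases before to 50 bases after a RefSeq gene start on GRCm38.p6 and are written 5′ to 3′ on the gene's own strand. Capitals mark TTCNNNGAA, the letters of a STAT dimer site, which reads the same on both strands, or CAAAACA, the core of the insulin response element bound by FOXO1, searched on both strands. The Igfals windows that hold a match lie at chr17:24877594-24877893 and chr17:24877981-24878280 on the plus strand, with 1 such STAT match each. They are labelled upstream and downstream below by their order to each other. A further Igfals window, downstream of both at chr17:24878497-24878796, holds neither run of letters. The Bcl6 window at chr16:23981234-23981533, on the minus strand, holds 3. The Igfbp1 window at chr11:7197537-7197836, on the plus strand, holds CAAAACA.
Igfals, upstream start: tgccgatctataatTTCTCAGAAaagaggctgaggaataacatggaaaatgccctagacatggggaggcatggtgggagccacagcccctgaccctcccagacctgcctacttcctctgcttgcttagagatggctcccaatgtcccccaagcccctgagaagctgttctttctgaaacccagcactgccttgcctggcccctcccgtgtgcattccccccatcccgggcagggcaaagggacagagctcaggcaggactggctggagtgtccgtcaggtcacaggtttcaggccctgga
Igfals, downstream start: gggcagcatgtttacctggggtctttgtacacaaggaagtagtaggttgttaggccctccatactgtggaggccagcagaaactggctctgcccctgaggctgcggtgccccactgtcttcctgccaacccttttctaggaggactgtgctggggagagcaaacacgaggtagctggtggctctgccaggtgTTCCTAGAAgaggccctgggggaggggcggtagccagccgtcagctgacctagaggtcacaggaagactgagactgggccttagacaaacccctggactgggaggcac
Bcl6, downstream start: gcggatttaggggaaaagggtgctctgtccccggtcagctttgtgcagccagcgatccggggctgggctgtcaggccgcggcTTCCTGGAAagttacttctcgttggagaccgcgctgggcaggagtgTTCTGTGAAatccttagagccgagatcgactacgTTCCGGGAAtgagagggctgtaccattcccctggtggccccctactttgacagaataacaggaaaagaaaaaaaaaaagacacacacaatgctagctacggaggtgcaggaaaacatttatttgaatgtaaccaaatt
Igfbp1: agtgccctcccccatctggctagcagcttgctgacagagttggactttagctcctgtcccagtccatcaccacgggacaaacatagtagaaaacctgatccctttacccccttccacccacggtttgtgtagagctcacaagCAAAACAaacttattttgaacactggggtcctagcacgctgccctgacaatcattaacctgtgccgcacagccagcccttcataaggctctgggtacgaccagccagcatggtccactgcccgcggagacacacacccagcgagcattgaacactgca

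Counted from the start site, the first base of each match shown is at -236 and -58 in the Igfals windows. It is at -168, -122 and -88 in the Bcl6 window shown, and at -108 in the Igfbp1 window. Of the 10 members, 9 had entries, with 15 windows in all. TTCNNNGAA was found in 4 of these windows (2 of Igfals, 2 of Bcl6), and CAAAACA in 1, that of Igfbp1. Over all RefSeq windows of this length, 8.30% of 32851 hold TTCNNNGAA and 6.28% hold CAAAACA. The single Igf1 window, at chr10:87860861-87861160, and both Ghr windows hold neither run of letters. A match is a description of the letters and not a measured binding site.

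Ghr encodes the growth hormone receptor (chromosome 15, 3317760 to 3583492, minus strand, in GENCODE M21 on GRCm38). It read 207, 219, 242 and 172 CPM in DKO-7068, DKO-7070, DKO-7112 and DKO-7137, against 617, 598, 576 and 571 CPM in WT-7067, WT-7069, WT-7114 and WT-7139. The highest DKO library lay below the lowest control library by a wide margin, and both groups were tight. The log2 fold change was -1.49 (SE 0.14, 95% interval -1.80 to -1.19, edgeR adjusted p = 3.36e-05), a mean 2.82-fold lower level in DKO livers. BKO livers read 470.0, 426, 476 and 420.0 CPM in F1, F3, F4 and F6, against 477, 468, 566 and 492 CPM in the controls F2, F5, F5-2 and F7. These groups overlap, with a log2 fold change of -0.16 (95% interval -0.37 to 0.05, edgeR adjusted p = 0.578).

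Stat5b (chromosome 11, 100780731 to 100850724, minus strand) encodes the transcription factor that carries the growth hormone signal to the nucleus. It read 48.4, 45.6, 73.7 and 69.7 CPM in the DKO libraries in the same order, against 70.9, 68.5, 84.8 and 86.6 CPM in their controls. DKO-7068 and DKO-7070 were low, and DKO-7112 and DKO-7137 lay among the controls. The log2 fold change of -0.39 (95% interval -0.76 to -0.01) did not pass (edgeR adjusted p = 0.0989). With the tag series (the libraries tagged up to DKO-7070 against those from DKO-7112 on) as a batch term it passed, at -0.42 and an edgeR adjusted p of 0.00840, and over the 18 alternatives its adjusted p ran from 0.00840 to 0.217. In BKO livers Stat5b read 59.1 to 72.3 CPM against 70.4 to 84.7 CPM in controls, a log2 fold change of -0.28 (95% interval -0.49 to -0.07) that did not pass after adjustment over all genes (edgeR adjusted p = 0.278).

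Socs2, a direct target of STAT5B that damps growth hormone signalling, and Bcl6, a repressor that binds many of the same sites as STAT5, varied widely between libraries of a group. Socs2 (chromosome 10, 95385362 to 95417180, minus strand) read 14.1, 24.4, 14.8 and 12.2 CPM in DKO livers, against 14.1, 93.2, 13.7 and 10.3 CPM in controls. Bcl6 (chromosome 16, 23965052 to 23988852, minus strand) read 8.13, 9.36, 19.97 and 30.3 CPM in DKO livers, against 17.9, 9.55, 17.3 and 112 CPM in controls. A single control library stood far above the rest for each gene, WT-7069 for Socs2 and WT-7139 for Bcl6, and the other libraries of both groups overlapped. The log2 fold change of Socs2 was -1.01 (95% interval -2.72 to 0.70, edgeR adjusted p = 0.329), and without WT-7069 it was 0.36. That of Bcl6 was -1.21 (95% interval -3.16 to 0.74, edgeR adjusted p = 0.306), and without WT-7139 it was 0.17. Neither direction therefore held without its highest control.

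Socs2 in BKO livers ran from 12.3 to 29.8 CPM, against 10.1 to 27.1 CPM in controls. Its log2 fold change was 0.01 (95% interval -0.83 to 0.84, edgeR adjusted p = 0.998). Bcl6 read 11.7, 15.5, 65.6 and 16.8 CPM in BKO livers F1, F3, F4 and F6, against 27.2, 28.1, 30.1 and 33.8 CPM in their controls. All BKO libraries but F4 lay below every control, and F4 lay above them all. Its fitted log2 fold change was -0.12 (95% interval -1.49 to 1.26, edgeR adjusted p = 0.968). Without F4 it was -1.02 and Bcl6 was called (edgeR adjusted p = 0.00906), the only member called in a BKO fit.

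**Figure D2:**
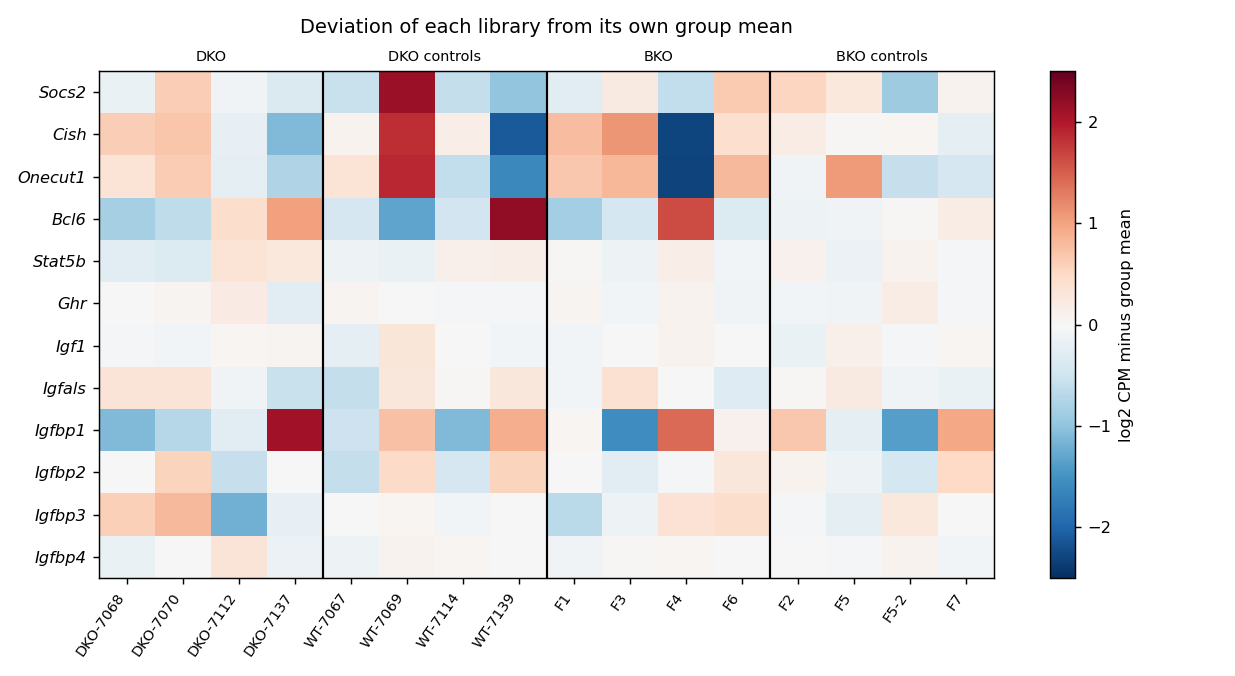
Deviation of each library from the mean of its own group (colour, log2 CPM) for the members and for Cish and Onecut1, by library. WT-7069 is high for Socs2 (93.2 CPM), Cish (50.02 CPM) and Onecut1 (154 CPM) and low for Bcl6, while WT-7139 and F4 are high for Bcl6 (112 and 65.6 CPM) and low for Cish and Onecut1.

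The libraries that stood apart for Bcl6 and Socs2 also stood apart for Cish, a STAT5 target of the same inhibitor family, and Onecut1, a liver transcription factor regulated by growth hormone. Cish and Onecut1 were singled out after their values had been seen. In the DKO controls Cish read 50.02 CPM in WT-7069 and 3.03 CPM in WT-7139, beside 14.6 and 15.4 CPM in the other libraries. Onecut1 read 154 CPM in WT-7069 and 13.6 CPM in WT-7139, beside 53.3 and 27.1 CPM. Among BKO livers F4, the library with the most Bcl6, had 2.56 CPM of Cish and 15.9 CPM of Onecut1, beside 17.2 to 27.9 CPM and 127 to 142 CPM in the other BKO livers. So WT-7069 was high for Cish and Onecut1 where Bcl6 was low, and WT-7139 and F4 were low for both where Bcl6 was high. Socs2 also went this way, at 2.15 log2 CPM from its group mean in WT-7069, the highest of its group. It was at -0.996 in WT-7139 and -0.621 in F4, each the lowest of its group. Igfals, another STAT5B target, did not show this. It was at 219 CPM in WT-7139 as in WT-7069, the top of its group, and at 154 CPM in F4, in the middle of the BKO livers. Ghr did not follow this split, at 598 CPM in WT-7069, 571 CPM in WT-7139 and 476 CPM in F4, each close to the rest of its group. Igf1 was the highest of its group both in WT-7069, at 1479 CPM, and in F4, at 830.0 CPM.

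Igf1 encodes the circulating growth factor itself (chromosome 10, 87858265 to 87937042, plus strand). It read 509.9, 509, 547 and 556 CPM in DKO livers, against 1033, 1479, 1195 and 1144 CPM in controls. The 4 DKO livers were nearly equal and all lay below every control. The log2 fold change was -1.19 (SE 0.15, 95% interval -1.52 to -0.86, edgeR adjusted p = 0.000214), a 2.29-fold lower mean. BKO livers read 745, 786, 830.0 and 779 CPM against 641, 788, 707 and 743 CPM in their controls. The ranges overlap and the log2 fold change was 0.13 (95% interval -0.08 to 0.33, edgeR adjusted p = 0.678). Igf1 overlaps Igf1os on the other strand, and Bcl6 overlaps Gm37419. Neither partner was found among the gene names shared by both count tables. Whether the counting used strand is not stated in the sources used here, so reads of a gene and its partner cannot be told apart.

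Igfals (chromosome 17, 24865997 to 24882010, plus strand) encodes the acid-labile subunit that holds IGF1 and IGFBP3 in the large circulating complex. It read 69.5, 69.4, 52.2 and 37.8 CPM in DKO livers, against 120.1, 219, 185 and 219 CPM in controls. No DKO liver reached the lowest control, and the log2 fold change of -1.70 (SE 0.24, 95% interval -2.24 to -1.16, edgeR adjusted p = 0.000585) is a 3.25-fold lower mean. Within the tag series the log2 ratio of means was -1.29 in the series that holds DKO-7068 and DKO-7070 and -2.17 in the series that holds DKO-7112 and DKO-7137. BKO livers read 146, 201, 154 and 124 CPM against 128, 148, 118 and 113 CPM in controls. F3 and F4 stood above all controls, but the groups overlap and the log2 fold change of 0.30 (95% interval -0.01 to 0.61) did not pass (edgeR adjusted p = 0.445).

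Among the binding proteins, Igfbp4 (chromosome 11, 99041244 to 99054392, plus strand), an inhibitor of IGF action that PAPPA can cleave, fell in DKO livers. It read 1010.1, 1145, 1423 and 1027 CPM in DKO livers, against 1943, 2262, 2194 and 2149.8 CPM in controls. The groups do not overlap, and the log2 fold change was -0.89 (SE 0.16, 95% interval -1.25 to -0.54, edgeR adjusted p = 0.00167), a 1.86-fold lower mean. BKO livers ran from 1383 to 1532 CPM and their controls from 1467 to 1640.3 CPM, which overlap (log2 fold change -0.06, 95% interval -0.25 to 0.14, edgeR adjusted p = 0.867).

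Igfbp1 (chromosome 11, 7197782 to 7202546, plus strand), which insulin represses and fasting or liver stress induces, went the other way. DKO livers read 116, 152, 203 and 1063 CPM, against 38.8, 92.5, 25.7 and 104 CPM in controls. All DKO libraries lay above every control, and DKO-7137 lay far above the rest. The fitted log2 fold change was 2.55 (SE 0.85, 95% interval 0.59 to 4.51, edgeR adjusted p = 0.0484), and without DKO-7137 it was 1.26 and did not pass (edgeR adjusted p = 0.0787). It was called in 10 of 18 alternatives, with adjusted p from 0.00948 to 0.106. BKO livers read 92.5, 30.3, 238 and 96.0 CPM, against 246, 130.5, 59.6 and 305 CPM in controls. Both groups spread over a wide range and overlap, with a log2 fold change of -0.70 (95% interval -2.50 to 1.103, edgeR adjusted p = 0.792).

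Igfbp2 (chromosome 1, 72824503 to 72852474, plus strand), a major binding protein of blood, read 409, 595, 271 and 407 CPM in DKO livers, against 149, 315, 168 and 332 CPM in controls. DKO-7112 lay below the upper 2 controls, and the log2 fold change of 0.80 (95% interval 0.09 to 1.51) did not pass (edgeR adjusted p = 0.0756). Igfbp3 (chromosome 11, 7206086 to 7213923, minus strand), the carrier in the large complex, is made in liver mainly outside hepatocytes. It read 20.8, 24.1, 5.86 and 11.8 CPM in DKO livers, against 29.7, 30.9, 28.4 and 29.9 CPM in controls. The groups do not overlap, but the log2 fold change of -0.92 (95% interval -1.73 to -0.10) did not pass (edgeR adjusted p = 0.0777). DKO-7068 and DKO-7070 were the higher DKO libraries and DKO-7112 and DKO-7137 the lower, and with the tag series as a batch Igfbp3 was called, at -1.04 (edgeR adjusted p = 0.0183). Igfbp3 was called in 8 of 18 alternatives and Igfbp2 in 5 of 18. In BKO livers Igfbp2 ran from 165 to 241 CPM against 147 to 284 CPM in controls, and Igfbp3 from 14.9 to 32.0 CPM against 19.8 to 28.2 CPM in controls. Neither passed, with edgeR adjusted p of 0.965 and 0.951.

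Of the 10 members, 6 had DKO and control libraries that did not overlap (Ghr, Igf1, Igfals, Igfbp1, Igfbp3 and Igfbp4), where 35.4% of all genes tested were separated in this way. In the BKO experiment 0 of 10 were separated, where 7% of genes were. The tags of the DKO experiment were split here into 2 runs of numbers, between DKO-7070 and DKO-7112, with 2 DKO and 2 control libraries in each. The labels give no such split, and the tag numbers have a further gap between WT-7114 and DKO-7137. In the run that holds DKO-7068 and DKO-7070, and in the run that holds DKO-7112 and DKO-7137, the log2 ratio of DKO to control means was -1.51 and -1.47 for Ghr, -1.30 and -1.08 for Igf1, and -0.96 and -0.83 for Igfbp4. For Igfbp1 it was 1.03 and 3.28, and for Igfbp3 -0.43 and -1.72. The sign was thus the same in both runs for these genes, while that of Socs2 was not, at -1.48 and 0.17.

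Levels of different genes were compared per kb of exon. In control livers of the DKO experiment Igfbp4 led, at 484 CPM per kb, followed by Igfbp2 at 131, Igf1 at 122, Ghr at 65.2, Igfals at 58.7 and Igfbp1 at 42.8 CPM per kb. Neighbouring ranges of Igfbp2 and Igf1, of Ghr and Igfals, and of Igfals and Igfbp1 overlapped there. In DKO livers Igfbp4, Igfbp1 and Igfbp2 had means of 261, 251 and 228 CPM per kb. The Igfbp1 mean rests on DKO-7137, and without it was 102.96 CPM per kb, beside 270.0 for Igfbp4 and 230.2 for Igfbp2. Igf1 followed at 53.5, Ghr at 23.2 and Igfals at 18.1 CPM per kb. With all libraries the ranges of Igfbp4 and Igfbp1, of Igfbp1 and Igfbp2, and of Ghr and Igfals overlapped. By their means Stat5b, Igfbp3, Bcl6 and Socs2 were the 4 lowest in all 4 groups. In DKO livers Igfals, down to 11.9 CPM per kb, and Stat5b, up to 13.3 CPM per kb, overlapped as well.

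The make-up of the transcripts of Igfbp1 to Igfbp4 differed accordingly. Igfbp5, Igfbp6 and Igfbp7 were not part of the sum. Igfbp4 made up 38.5 ± 13.9% of the summed CPM per kb of Igfbp1 to Igfbp4 in DKO livers and 73.4 ± 7.82% in controls (SD, n = 4 each). Igfbp1 took 27.8 ± 22.0% in DKO livers and 6.14 ± 2.99% in controls, and Igfbp2 took 32.9 ± 13.3% in DKO livers and 19.0 ± 5.07% in controls. Without DKO-7137 the Igfbp1 share in DKO livers was 16.9 ± 4.42% (SD, n = 3). The ranges of the Igfbp4 share, 20.2 to 53.4% in DKO livers and 65.4 to 80.9% in controls, and of the Igfbp1 share, 14.3 to 60.4% in DKO livers and 2.74 to 9.18% in controls, did not overlap. In BKO livers Igfbp4 took 64.3 ± 7.70% against 60.3 ± 11.4% in controls, which overlap. The level of Igf1 over the sum of the 4 binding proteins, both per kb, was 0.0487 to 0.0966 in DKO livers and 0.155 to 0.198 in controls. In the BKO experiment it was 0.135 to 0.174 in BKO livers and 0.102 to 0.151 in controls. These shares were described without a test.

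**Figure D3:**
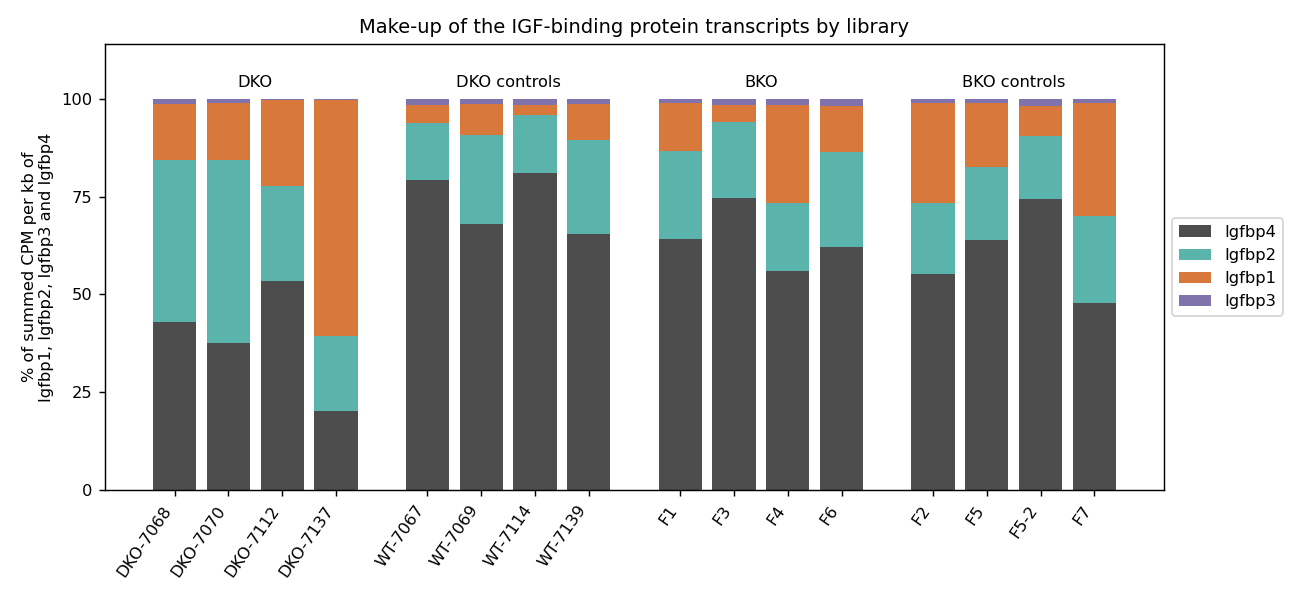
Share of each binding protein gene in the summed CPM per kb of Igfbp1, Igfbp2, Igfbp3 and Igfbp4, in % (vertical axis), by library, 1 bar each. Igfbp4 takes 20.2 to 53.4% in DKO livers and 65.4 to 80.9% in their controls.

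The members were also given per 1000 CPM of the summed hepatocyte markers. Alb made up 38.2 to 56.6% of that sum in DKO livers and 63.1 to 65.4% in controls, so the scale was set largely by 1 gene, and it was repeated without Alb, a choice made after the data had been seen. On the full sum Ghr was 1.47 to 2.47 in DKO livers and 3.30 to 4.11 in controls. Igf1 was 4.75 to 5.60 in DKO livers and 6.62 to 9.36 in controls, and Igfals was 0.323 to 0.698 in DKO livers and 0.800 to 1.38 in controls. These 3 genes and Igfbp1, at 1.17 to 9.08 in DKO livers and 0.181 to 0.603 in controls, had groups that do not overlap on the sum with Alb and on the sum without it. Without Alb the sum itself overlapped, at 45261 to 60351 CPM in DKO livers and 51029.9 to 63891 CPM in controls. Igfbp4 overlapped on the sum with Alb, at 8.78 to 14.6 in DKO livers and 12.4 to 15.5 in controls, and was separated on the sum without it, at 20.2 to 25.3 in DKO livers and 33.6 to 43.0 in controls. Igfbp2 was separated on the sum with Alb, higher in DKO livers, and overlapped without it. Stat5b averaged 0.572 in DKO livers and 0.501 in controls on the sum with Alb, and 1.17 in DKO livers and 1.405 in controls without it, so its direction turned with the scale, and Igfbp3, Socs2 and Bcl6 overlapped on both. In the BKO experiment Stat5b became separated, at 0.425 to 0.532 in BKO livers and 0.566 to 0.739 in controls with Alb, and at 1.18 to 1.36 in BKO livers and 1.53 to 1.98 in controls without it. Ghr was separated there only without Alb, at 8.10 to 9.69 in BKO livers and 10.2 to 13.5 in controls, and the other 8 members overlapped on both. The sum without Alb was 47655 to 56078 CPM in BKO livers and 42026 to 46703 CPM in their controls, which do not overlap. These ratios were given without a test.

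Whether the double knockout moved the members differently from the Arid1b knockout was tested as the difference of the log2 effects over all 16 libraries. Of the 10 members 4 were called, all lower, where 22.5% of 14050 genes were called and 11.5% were lower. Igfals differed by -2.03 (SE 0.30, 95% interval -2.67 to -1.39, edgeR adjusted p = 0.000195). Ghr differed by -1.36 (95% interval -1.70 to -1.03, edgeR adjusted p = 1.59e-05) and Igf1 by -1.35 (95% interval -1.70 to -0.998, edgeR adjusted p = 3.02e-05). For Igfbp4 the difference was -0.87 (95% interval -1.23 to -0.50, edgeR adjusted p = 0.00179). That of Igfbp1, 3.22 (95% interval 0.67 to 5.77), did not pass (edgeR adjusted p = 0.0676). Stat5b, Socs2, Bcl6, Igfbp2 and Igfbp3 did not pass either, with edgeR adjusted p from 0.125 to 0.657. The experiments are separate tables of different depth, and the double knockout also lacks Arid1a, so the difference does not separate the genotype from the experiment.

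**Figure D4:**
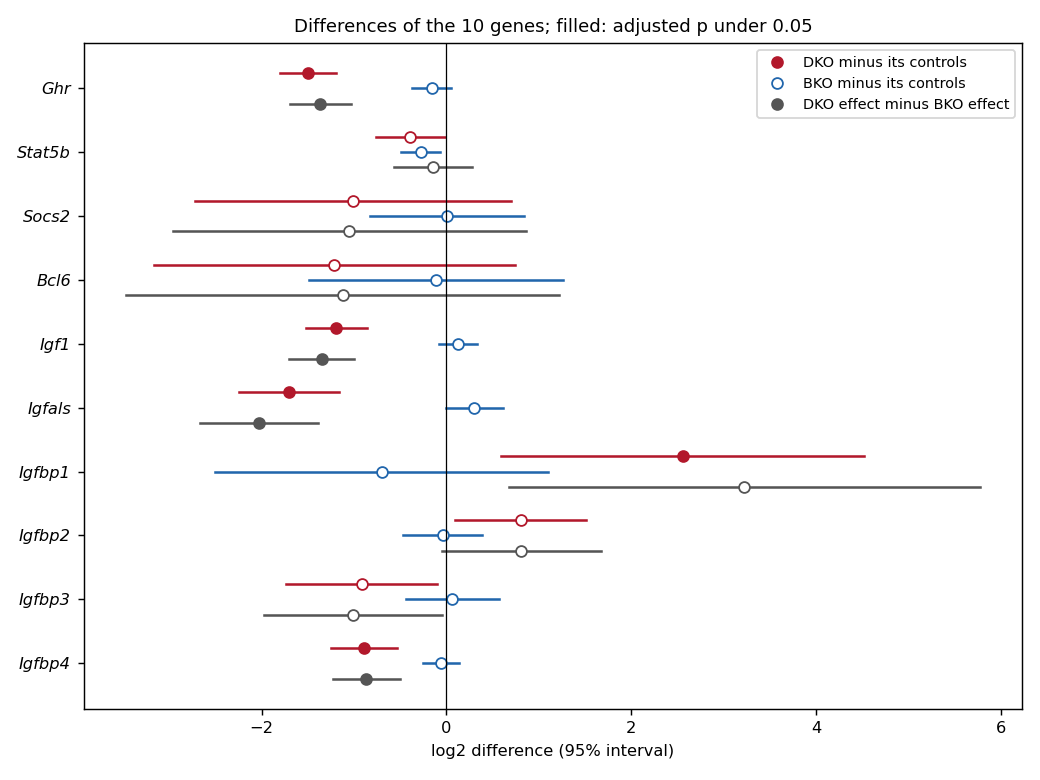
Log2 difference of each member (points, with 95% intervals) for DKO minus its controls, BKO minus its controls, and the DKO effect minus the BKO effect, with filled points at an adjusted p under 0.05. Ghr, Igf1, Igfals and Igfbp4 are filled for DKO (-1.49, -1.19, -1.70 and -0.89) and for the difference, Igfbp1 for DKO alone, and no BKO point is filled.

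A list of 28 other genes of the axis was made by role, with earlier results of these data known. Of these, 25 were tested in the DKO experiment, and 9 rose, 4 fell and 12 did not pass (median log2 fold change 0.11). Over all genes tested there 35.8% were called, 19.2% higher and 16.6% lower, with a median of 0.02. In the BKO experiment 0 of 26 were called by edgeR, 0 by DESeq2 and 0 by limma voom, with 1 at an unadjusted p under 0.05. There edgeR called 0.583% of all genes tested. Among receptors, Prlr, the prolactin receptor, fell to 120.3 ± 30.2 CPM in DKO livers against 505 ± 113 CPM in controls (log2 fold change -2.07, edgeR adjusted p = 9.24e-05). Insr, the insulin receptor, fell to 185 ± 36.7 CPM against 292 ± 29.2 CPM in controls (edgeR adjusted p = 0.00756). Igf1r, the receptor for IGF1, which hepatocytes hardly make, rose to 16.7 ± 4.01 CPM against 10.7 ± 1.24 CPM in controls (edgeR adjusted p = 0.0173). The call of Igf1r was lost without DKO-7070 and without WT-7114.

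In the signalling chain, Stat5a, the close relative of Stat5b, fell to 10.5 ± 2.43 CPM in DKO livers against 18.2 ± 4.49 CPM in controls (edgeR adjusted p = 0.0154). Jak2, the kinase on the receptor, was 36.4 ± 6.07 CPM in DKO livers against 27.8 ± 0.628 CPM in controls (edgeR adjusted p = 0.0301), a call that held in 12 of 18 alternatives. Grb10, an adaptor that inhibits insulin and IGF1 receptors, rose to 41.1 ± 3.74 CPM against 11.7 ± 2.88 CPM in controls (edgeR adjusted p = 3.37e-05). Ptpn6, a phosphatase of blood cells that can act on JAK2, rose to 35.9 ± 2.53 CPM against 20.02 ± 3.19 CPM (edgeR adjusted p = 0.000627). Socs3 and Irs2 did not pass.

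Among ligands, binding proteins and the proteases that cut them, Igf2, the fetal growth factor, had the greatest log2 fold change of the called genes of this list, 9.47 (edgeR adjusted p = 0.000616). It read 914, 728, 35.7 and 638 CPM in DKO livers and 0.573 to 1.26 CPM in controls, and DKO-7112 was lowest. Igfbp6, which binds IGF2 preferentially, was 20.7 ± 15.4 CPM in DKO livers and 0.640 ± 0.658 CPM in controls (edgeR adjusted p = 0.00107). Igfbp7, a low-affinity relative made by vessels and fibroblasts, was 164 ± 26.8 CPM against 67.3 ± 10.1 CPM in controls (edgeR adjusted p = 0.000149). Pappa, the protease that cuts IGFBP4, was 3.71 ± 1.39 CPM against 0.502 ± 0.220 CPM (log2 fold change 2.86, edgeR adjusted p = 0.000422), and Htra1, another IGFBP protease, 11.03 ± 4.12 CPM against 3.07 ± 1.19 CPM (edgeR adjusted p = 0.00163). Igfbp5, another binding protein of the list, went the other way in the DKO effect minus the BKO effect, at -2.21 (edgeR adjusted p = 0.0234). Igfbp6 and Igfbp7 were at 5.78 and 1.24 in that difference. Stellate cell marker sums were higher in all DKO libraries, as given above, and the part of these cells in Igfbp6, Igfbp7 and Pappa was not tested.

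**Figure D5:**
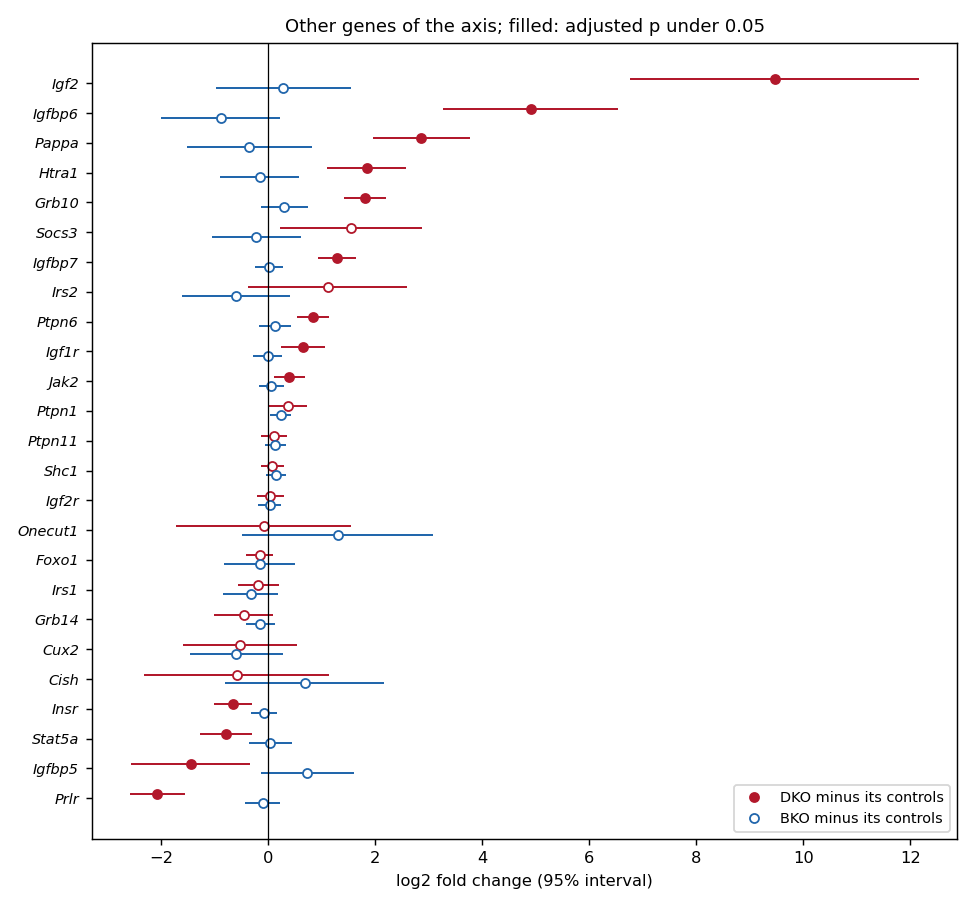
Log2 fold change with 95% interval of the 25 other genes of the axis tested in the DKO experiment, DKO above BKO for each gene, with filled points at an adjusted p under 0.05. Filled points are DKO only, from 9.47 for Igf2 to -2.07 for Prlr.

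Sex-biased liver genes, part of which follow growth hormone, were listed as well, with earlier results of these data known. Growth hormone and its signalling were not measured, and the cause of changes in these genes was not tested. Xist had 17511 to 86791 counts in every library and the summed count of 4 Y-linked genes was 0 or 1, so the livers read as female. In DKO livers 15 of 18 tested female-biased genes fell, 0 rose and 3 did not pass, with a median log2 fold change of -3.42. Of 13 tested male-biased genes 10 fell, 1 rose and 2 did not pass, with a median of -3.02, so genes of both lists were lower. Over all 12848 genes tested 35.8% were called, 16.6% lower and 19.2% higher, with a median log2 fold change of 0.02. Of the female-biased genes, Cyp2b13 was 0.494 ± 0.271 CPM in DKO livers and 83.1 ± 29.6 CPM in controls, Cyp2a4 was 12.6 ± 11.4 CPM in DKO livers and 1000.3 ± 254 CPM in controls, and Sult3a1 was at 0 counts in all DKO libraries and at 43.1 ± 14.2 CPM in controls. Of the male-biased genes, Slco1a1, an organic anion transporter, was 12.9 ± 4.62 CPM in DKO livers and 276 ± 90.6 CPM in controls, and Ugt2b1, a glucuronidation enzyme, was 44.9 ± 5.27 CPM in DKO livers and 365 ± 26.5 CPM in controls. Selenbp2 was the gene that rose, at 191 ± 131 CPM in DKO livers and 30.2 ± 17.7 CPM in controls (edgeR adjusted p = 0.0171). Several members of the Cyp2, Cyp3a and Ugt families are near-identical copies, and their counts are uncertain to that extent.

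In BKO livers 1 of 18 female-biased genes and 3 of 15 male-biased genes were called, all lower. Over all 14061 genes tested there 0.583% were called, and 0.398% were lower. Fmo2, a female-biased oxygenase, was 48.1 ± 5.70 CPM in BKO livers and 75.1 ± 10.9 CPM in controls (edgeR adjusted p = 0.0342). Cyp2u1 was 2.40 ± 0.995 CPM in BKO livers and 10.1 ± 2.95 CPM in controls (edgeR adjusted p = 0.0177). Susd4 was 0.0485 ± 0.0425 CPM in BKO livers and 0.732 ± 0.200 CPM in controls (edgeR adjusted p = 0.0259). Elovl3, a fatty acid elongase, was at 0 counts in every BKO liver and at 0.744 ± 0.267 CPM in controls (edgeR adjusted p = 0.0198). The number called was 0 without F1, 1 without F3, F6 or F2, 2 without F5 or F7, 4 without F5-2 and 5 without F4. Cyp2d9, a male-biased hydroxylase, was 91.9 ± 25.5 CPM in BKO livers and 40.9 ± 8.75 CPM in controls and did not pass (edgeR adjusted p = 0.0582). None of the 10 members was called beside these genes.

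The genes whose levels went most nearly with Igf1 were sought among 12701 genes tested in both experiments, over all 16 libraries and with no test. With log2 CPM centred on the mean of each experiment they were Cyp2e1 (Pearson r = 0.962), Ugt2b1 (0.959), Npr2 (0.954), Fgf1 (0.952) and Trpc4ap (0.952), and these points share the DKO split. With each library taken as its deviation from its own group they were Tmem214 (r = 0.897), Mbtps1 (0.807), Cnpy3 (0.795), Sdf2l1 (0.791) and Rnf24 (0.788), and none of the first 5 was among them.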

How the data were processed

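Per the labels' protocols, TRIzol extracts of liver were made into libraries with a NuGEN Ovation kit. The authors deposited whole-number counts per gene, 1 table for each experiment. The submitters' processing notes name featureCounts 1.6.2, HISAT2 2.1.0 and Trim Galore 0.4.1, and GRCm38, mm10 and GRCh38 without roles. The sources used here state neither the annotation nor the strand setting. Groups follow the labelled genotypes, and 0 columns were left without a sample.

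The members and gene lists were chosen with earlier results of these data known. Counts were fitted in R 4.3.3 with edgeR 4.0.16 (filterByExpr, TMM scaling, robust quasi-likelihood F test), per experiment, and over all 16 libraries for the difference of effects. P-values were Benjamini-Hochberg adjusted over all genes tested and called under 0.05. The SE is taken as the size of the log2 fold change over the root of F. CPM are TMM-normalized, and CPM per kb use the exonic bases of GENCODE M21. Replicate pairs differed beyond counting noise, so each library was kept as 1. The chi-square per degree of freedom was 6.92 for the closest pair, DKO-7068 and DKO-7070, and 32.8 to 56.1 for the other DKO pairs. The next closest pair of any group, WT-7067 and WT-7114, was at 25.4, and F5 with F5-2 at 65.8. Whether DKO-7068 and DKO-7070 are as independent as the other libraries was not tested. The steps were tested on simulated counts. Named were all members, up to 12 called axis genes and up to 4 genes of each sex-biased list by adjusted p, and the genes most like Igf1. Selenbp2 was named after its values had been seen, as the 1 gene of its list that rose. Igfbp5 was also named after its values had been seen, as a binding protein that went the other way in the difference. Alternatives were DESeq2 1.42.0 size factors and Wald test, limma 3.58.1 voom, total counts, the 20 most abundant genes removed, no filter, at least 1 CPM in 4 libraries, a joint fit of 16 libraries, the tag series as a batch, DKO-7068 and DKO-7070 summed, F5 and F5-2 summed, and each library left out.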

Additional observations from a re-analysis of the deposited data

Results flagged for a closer look

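A single library lay far from the other 3 of its group in 4 of 40 combinations of member and group. Chance gives about 1 in 20 only for values with a normal spread. CPM may not spread so, and the flags are a description without a test. Bcl6 was at 65.6 CPM in the BKO liver F4 and at 112 CPM in the DKO control WT-7139. Socs2 was at 93.2 CPM in the DKO control WT-7069. Igfbp1 was at 1063 CPM in DKO-7137, which had the lowest Ghr and Igfals of the DKO livers. The log2 effect of the double knockout differed from that of the Arid1b knockout by -1.36 for Ghr, -1.35 for Igf1, -2.03 for Igfals and -0.87 for Igfbp4, each tested as a contrast over all 16 libraries with edgeR (adjusted p = 1.59e-05, 3.02e-05, 0.000195 and 0.00179).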

How the results depend on the processing

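In the DKO experiment Ghr, Igf1, Igfals and Igfbp4 kept their direction and call in all 18 alternatives, from -1.59 to -1.31, -1.27 to -1.02, -1.87 to -1.49 and -1.03 to -0.72, and in all 23 alternatives of the difference. The number of members called there was 5, was 8 with all 16 libraries in one fit (adding Stat5b, Igfbp2 and Igfbp3), 7 with the tag series as a batch (adding Stat5b and Igfbp3), 7 by the DESeq2 Wald test, and ran from 4 to 7 as each library was left out. Igfbp1 lost its call with no filter and under voom, and without DKO-7112, DKO-7137 or any 1 of the 4 controls, as given by adjusted p up to 0.106. As libraries were left out, Socs2 ran from -1.31 to 0.36 and Bcl6 from -1.66 to 0.17 in DKO livers, and from -1.35 to 0.32 and -1.56 to 0.25 in the difference. In BKO livers Socs2 ran from -0.25 to 0.19, Bcl6 from -1.02 to 0.13, Igfbp2 from -0.17 to 0.15 and Igfbp3 from -0.0856 to 0.24. Socs2 in BKO livers was also -0.0463 with total counts, -0.000339 at 1 CPM in 4 libraries and -0.0570 with both F5 libraries summed. With total counts Arid1a in BKO livers was -0.0095 and Stat5b in the difference was 0.12. That scaling put the median of all genes at 0.20 in the DKO comparison and 0.27 in the difference. Members called in BKO livers ran from 0 to 1 and other axis genes from 0 to 1 as libraries were left out, both 1 without F4. Sex-biased genes called in BKO livers numbered 4, were 2 at 1 CPM in 4 libraries, 8 by the DESeq2 Wald test, and 0 to 5 as libraries were left out. The causes of these shifts were not tested. Over all genes, BKO calls numbered 82 by edgeR and 355 by the DESeq2 Wald test. No paired analysis was possible because the groups share no replicate numbers.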
